A study of Mus musculus with 6 samples.

Results

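The genes described here are the 8 genes named for the filaggrin-type fused S100 proteins and the classical cornified envelope precursors: Flg, Flg2, Hrnr, Rptn, Tchh, Tchhl1, Ivl and Lor. They were taken by name from the 55487 genes of the count table, and all 8 passed the filter on low counts that left 18259 genes for testing. The data came from 6 libraries of polyadenylated RNA from whole dorsal skin of mice on day 2, 3 labelled control and 3 labelled DPCP (diphenylcyclopropenone, a contact sensitizer used to provoke an allergic skin reaction). The labels give no strain, age, sex or genotype, name no treatment or vehicle for control skin, and do not tell whether replicates are different animals, so p-values here reflect only library-to-library spread, part of which may be technical. The study's title concerns macrophages and hair regrowth after contact hypersensitivity, and the comparison asks here how these barrier genes differed between DPCP and control skin.

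Keratinocytes that leave the basal layer of the epidermis build a cornified envelope, a protein shell cross-linked under the membrane by transglutaminases. Involucrin (Ivl) is an early scaffold of that shell and loricrin (Lor) its main reinforcing protein, while filaggrin (Flg) is stored as a long precursor, cut into repeat units that bundle keratin filaments, and finally broken down to amino acids that hold water. The fused S100 genes are named for a calcium-binding S100 domain at the amino end that is fused to a long, often repetitive tail, and they lie together with Ivl, Lor and many other envelope genes in the epidermal differentiation complex.

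All 8 genes lie on mouse chromosome 3 (GRCm38). The 6 fused genes lay on the plus strand within 0.275 Mb, with predicted genes between some of them. Their order was Flg2 (chr3:93197278-93221391), Flg (chr3:93273523-93293686), Hrnr (chr3:93319749-93333570), Rptn (chr3:93393699-93399442), Tchh (chr3:93442330-93449077) and Tchhl1 (chr3:93468754-93471980). Lor (chr3:92080271-92083142) and Ivl (chr3:92570902-92573735) lay before them on the minus strand. In the GENCODE annotation of that build, Lor and Ivl had 1 coding exon each, and each fused gene had at least 2. The first coding exon held 138 bases in Flg, Flg2, Hrnr, Rptn and Tchh and 141 bases in Tchhl1. These exons are shown because they begin the domain that gives the family its name, with the start codon in capitals.
Flg, chr3:93277573-93277710, plus strand: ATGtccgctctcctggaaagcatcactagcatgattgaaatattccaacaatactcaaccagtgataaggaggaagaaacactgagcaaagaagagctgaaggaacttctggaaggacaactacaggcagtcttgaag
Flg2, chr3:93200210-93200347, plus strand: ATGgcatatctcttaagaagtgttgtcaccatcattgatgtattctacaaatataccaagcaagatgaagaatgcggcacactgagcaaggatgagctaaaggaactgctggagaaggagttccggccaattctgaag
Hrnr, chr3:93320577-93320714, plus strand: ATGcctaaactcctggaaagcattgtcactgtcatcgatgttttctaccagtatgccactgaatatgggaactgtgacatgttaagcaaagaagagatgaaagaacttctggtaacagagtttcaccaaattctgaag
Rptn, chr3:93394979-93395116, plus strand: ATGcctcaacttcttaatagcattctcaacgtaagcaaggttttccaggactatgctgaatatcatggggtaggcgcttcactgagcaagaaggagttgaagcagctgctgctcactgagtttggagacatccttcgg
Tchh, chr3:93442330-93442467, plus strand: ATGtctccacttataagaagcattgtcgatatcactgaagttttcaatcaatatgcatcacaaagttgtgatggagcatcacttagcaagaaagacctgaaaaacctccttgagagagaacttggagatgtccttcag
Tchhl1, chr3:93469498-93469638, plus strand: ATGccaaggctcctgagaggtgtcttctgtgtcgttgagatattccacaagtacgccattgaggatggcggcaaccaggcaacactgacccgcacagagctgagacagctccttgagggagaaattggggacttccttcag
Aligned in pairs, the 6 exons were identical at 54.2% to 67.4% of aligned positions (median 59.7% over 15 pairs). Flg2 and Hrnr were the closest pair, and Flg and Rptn the most distant.

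The longest annotated transcripts of Flg, Flg2 and Hrnr hold near-identical repeats, which matters for how their reads could be counted. For Flg and Flg2 that transcript is annotated without a coding frame, and their annotated coding sequence is 1071 and 7008 bases long, so not all repeat copies lie in annotated coding sequence. The word of 60 bases that recurred most often in the longest transcript of each of the 3 genes is given next, in the direction of the RNA.
Flg: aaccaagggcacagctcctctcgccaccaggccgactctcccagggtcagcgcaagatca
Flg2: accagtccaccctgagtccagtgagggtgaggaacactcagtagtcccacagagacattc
Hrnr: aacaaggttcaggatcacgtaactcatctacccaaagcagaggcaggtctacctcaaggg
The Flg word occurred 16 times at a median spacing of 751 bases, the Flg2 word 50 times at a median spacing of 234 bases, and the Hrnr word 16 times at a median spacing of 513 bases. Of all windows of 150 bases, the read length in the labels, 62.4% in Flg, 46.2% in Flg2 and 66.2% in Hrnr occurred more than once within the same transcript, against 0.211% in Tchh and 0% in Lor, Ivl, Rptn and Tchhl1. None of the windows of the 8 genes occurred in another annotated gene. The counting command recorded in the file header set no option for reads with several alignments, so such reads were left out, and levels of Flg, Flg2 and Hrnr are understated to an unknown extent in every library. That affects levels compared between genes. Both groups were counted in the same way.

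At day 2 the 8 genes moved in opposite directions. In DPCP skin Flg, Rptn, Tchh and Tchhl1 were higher, Flg2, Lor and Hrnr were lower, and Ivl did not pass the test. The changes ran from 7.85-fold lower (Flg2) to 15.1-fold higher (Tchhl1). In the chromosome order of the fused genes, Flg2, Flg, Hrnr and Rptn alternated in direction, while Rptn, Tchh and Tchhl1 were all higher. Called means a Benjamini-Hochberg adjusted p under 0.05 in edgeR's quasi-likelihood test over all 18259 genes. By that rule 7 of the 8 genes were called, 4 higher and 3 lower, where 46.1% of all tested genes were called, 22.8% higher and 23.3% lower. In 7 of the 8 genes the libraries of the groups did not overlap, as was true of 58.1% of all tested genes. With a background that high, the number of called genes is no mark of these 8, and the results lie in the sizes and directions. In whole skin, fewer cells of a type and less RNA per cell cannot be told apart. Levels are in CPM (counts per 1000000, with each library total scaled by its TMM factor), with libraries in the order of replicates 1, 2 and 3.

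**Figure D1:**
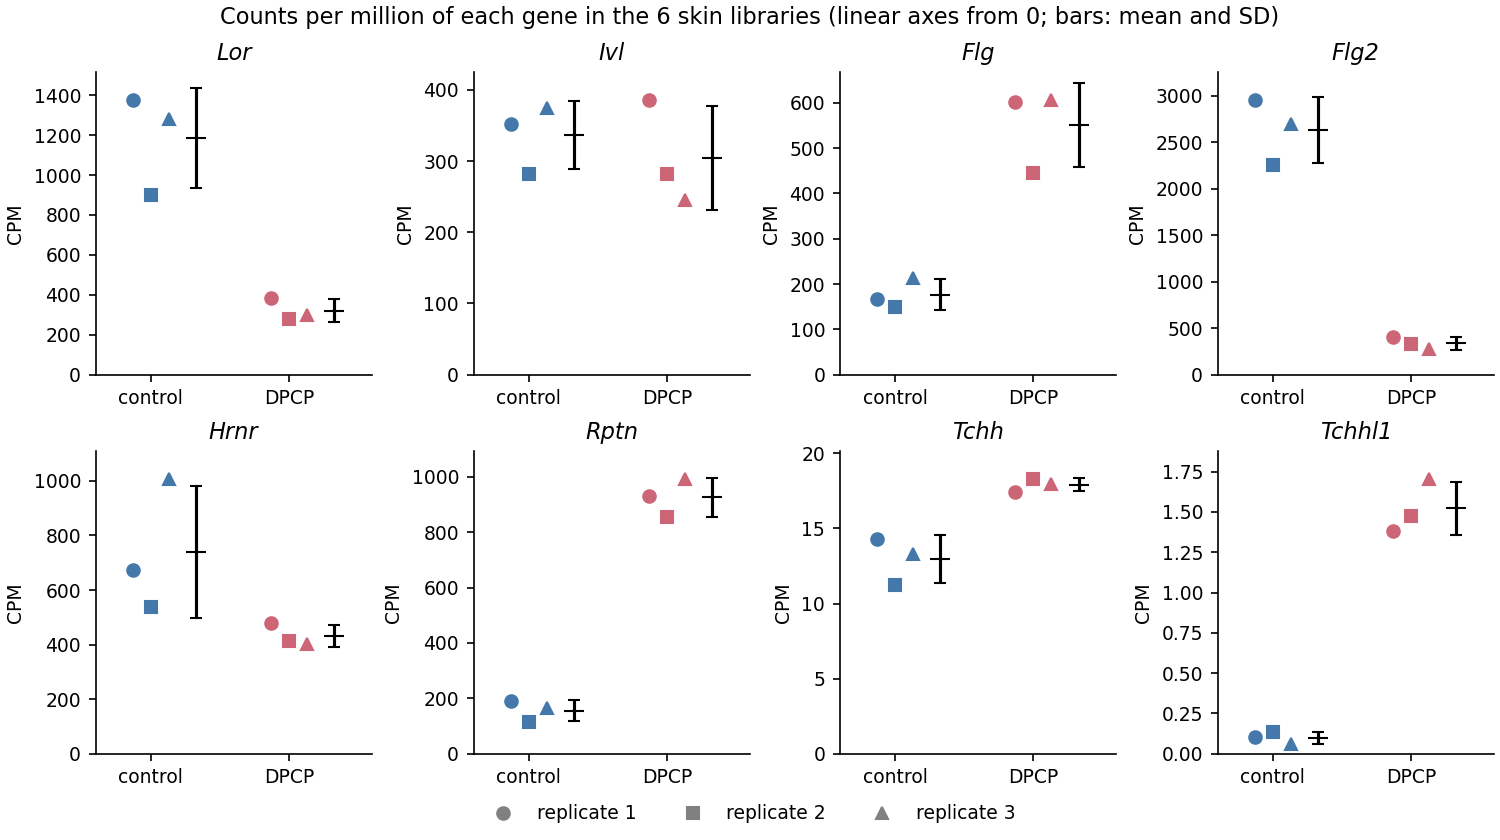
CPM of the 8 genes in each library, on linear axes that start at 0 and differ between panels; symbols mark replicates and black bars the mean and SD of 3 libraries. The groups are apart in every panel except that of Ivl, where both span about the same range.

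Filaggrin RNA was higher in DPCP skin. Flg (ENSMUSG00000102439) stood at 166, 149 and 214 CPM in the control libraries and at 601, 445 and 607 CPM in the DPCP libraries. The lowest DPCP library was above the highest control library. The means were 177 ± 33.6 and 551 ± 91.9 CPM (SD, n = 3 each), a log2 fold change of 1.64 ± 0.17 (SE, 3.12-fold higher) with an adjusted p of 0.000151 by edgeR's quasi-likelihood test with Benjamini-Hochberg adjustment. Of the 18259 tested genes, 734 had a higher log2 fold change.

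Filaggrin-2, a relative that is also cut into repeat units and found in the cornified layer, went the other way. Flg2 stood at 2955, 2249 and 2690 CPM in control and at 408, 325 and 272 CPM in DPCP libraries. Every DPCP library was below every control library by a wide margin. The mean went from 2632 ± 357 to 335 ± 68.6 CPM (SD, n = 3 each), a log2 fold change of -2.97 ± 0.18 (SE, 7.85-fold lower; adjusted p = 1.31e-05, edgeR's quasi-likelihood test). This was the most negative change of the 8, and 108 of the 18259 tested genes had a lower one. Within a library, the log2 ratio of Flg to Flg2 was -4.15, -3.91 and -3.65 in control and 0.56, 0.45 and 1.16 in DPCP skin. Flg2 thus had the larger count in each control library and Flg in each DPCP library. The mean difference of that ratio was 4.63, and a 2-sided exact permutation test over the 6 libraries gave p = 0.1, the smallest that 3 against 3 allows.

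Hornerin, a repeat protein of the cornified layer with a tail akin to that of filaggrin, was lower in DPCP skin by a smaller step. Hrnr stood at 674, 536 and 1008 CPM in control and at 478, 414 and 400 CPM in DPCP libraries. The groups did not overlap, but control replicate 3 stood well above the other controls. The means were 740 ± 243 and 431 ± 41.3 CPM (SD, n = 3 each), a log2 fold change of -0.78 ± 0.21 (SE, 1.72-fold lower; adjusted p = 0.0153, edgeR's quasi-likelihood test). Without control replicate 3 the log2 fold change was -0.49, and without DPCP replicate 3 it was -0.72 with an adjusted p of 0.0519 by the same edgeR test, which ends the call.

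Repetin, a fused S100 protein that is scarce in resting interfollicular epidermis, was higher. Rptn stood at 189, 113 and 165 CPM in control and at 930, 854 and 993 CPM in DPCP libraries. The DPCP libraries lay close together, all far above the controls. The mean went from 156 ± 38.9 to 926 ± 69.9 CPM (SD, n = 3 each), a log2 fold change of 2.57 ± 0.18 (SE, 5.94-fold higher; adjusted p = 2.82e-05, edgeR's quasi-likelihood test). Rptn shares an exon with the predicted gene Gm37857, and reads over that stretch were not counted for either gene.

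Trichohyalin is the protein of the inner root sheath and medulla of the hair follicle, and occurs in some other hard epithelia. Tchh stood at 14.3, 11.2 and 13.3 CPM in control and at 17.5, 18.3 and 17.96 CPM in DPCP libraries. The groups were apart by a narrow gap. The log2 fold change was 0.47 ± 0.12 (SE, 1.38-fold higher; adjusted p = 0.0130, edgeR's quasi-likelihood test), and 45.2% of all tested genes had a change at least as large in either direction. Of 11 genes of the inner root sheath and medulla, 6 were too low to test, among them Krt25, Krt27 and Krt71. Among the 5 tested, 3 were not called and 2 were lower: Krt28, an inner root sheath keratin, at 4.43 ± 0.952 against 0.4999 ± 0.191 CPM (log2 fold change -3.13 ± 0.32 SE, adjusted p = 0.000134 by edgeR), and the transcription factor Foxq1 at 16.2 ± 3.28 against 6.46 ± 0.295 CPM (log2 fold change -1.32 ± 0.16 SE, adjusted p = 0.000367 by edgeR; SD, n = 3 each). Without DPCP replicate 1, 1 gene of this list was called higher.

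Trichohyalin-like 1 was almost silent in control skin. Tchhl1 had 3, 4 and 2 reads in the control libraries and 48, 54 and 53 reads in the DPCP libraries, which is 0.102, 0.133 and 0.0596 CPM against 1.38, 1.48 and 1.71 CPM. All 3 DPCP libraries were above all controls, at a level near the limit of detection in control (3 counts are 0.0896 to 0.106 CPM there). The fitted log2 fold change was 3.92 ± 0.39 (SE, 15.1-fold higher; adjusted p = 0.000115, edgeR's quasi-likelihood test). From the pooled counts, 9 against 155 reads, the ratio was 14.8 with an exact 95% interval of 7.62 to 33.1, which covers counting error only.

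Loricrin was lower. Lor stood at 1377, 900.3 and 1279 CPM in control and at 386, 278 and 299.7 CPM in DPCP libraries. Even the lowest control library was over the highest DPCP library. The mean went from 1185 ± 252 to 321 ± 57.5 CPM (SD, n = 3 each), a log2 fold change of -1.88 ± 0.19 (SE, 3.69-fold lower; adjusted p = 0.000126, edgeR's quasi-likelihood test). Of the 18259 tested genes, 462 had a lower log2 fold change.

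Involucrin was not called. Ivl stood at 353, 282 and 375 CPM in control and at 386, 282 and 246 CPM in DPCP libraries, so the groups overlapped, with the highest and the lowest of the 6 values both in DPCP skin. The log2 fold change was -0.14 ± 0.18 (SE, adjusted p = 0.532, edgeR's quasi-likelihood test). Over the 14 alternative fits it lay between -0.35 and -0.0038, with adjusted p of 0.0793 to 0.988 by edgeR, DESeq2 or limma. A difference between the groups was not detectable with 3 libraries each, which does not show that the levels were equal.

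**Figure D2:**
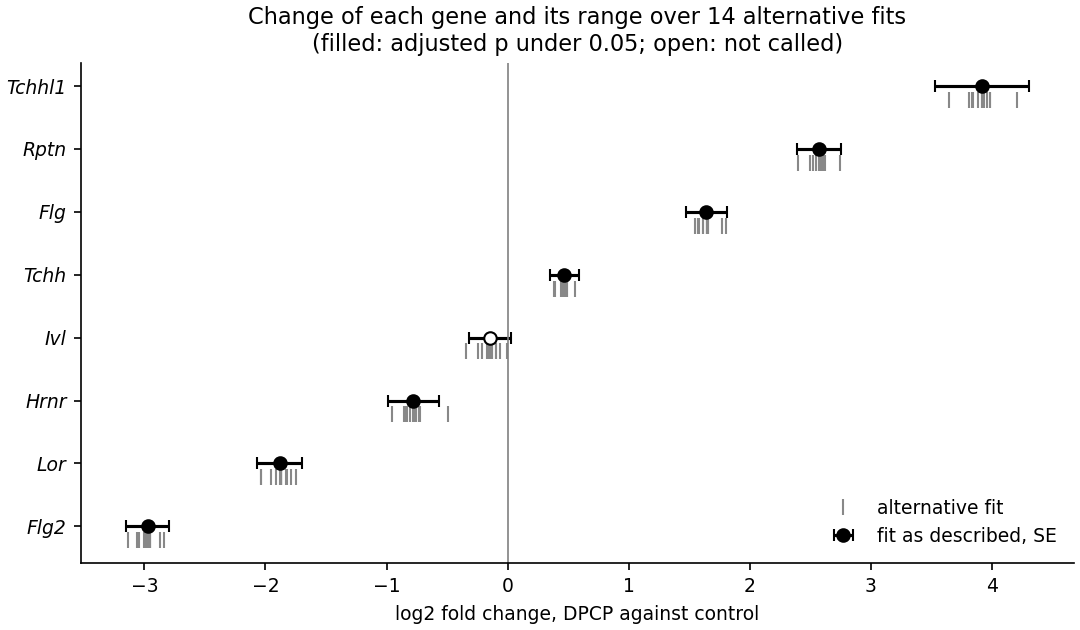
Log2 fold change of each gene, DPCP against control, with its SE (circles, filled where the adjusted p was under 0.05) and the values of 14 alternative fits (grey ticks). From Flg2 at -2.97 to Tchhl1 at 3.92 the called genes keep their signs in every fit. Ivl, not called, lies between -0.35 and -0.0038 in the alternative fits.

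Replicates of a group differed in ways that several of the genes shared. Among controls, replicate 2 was the lowest library for 7 of the 8 genes, all but Tchhl1. Among DPCP libraries, replicate 1 was the highest for 4 genes (Lor, Ivl, Flg2 and Hrnr). On the first principal component of all genes DPCP replicate 1 also lay nearer to the controls, at 49.2 against 73.8 and 71.9, with controls between -65.3 and -64.5. Without DPCP replicate 1 the calls were still 4 genes higher and 3 lower.

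Per kilobase of exon length in the deposited table, the make-up of the 8 genes' RNA differed between the groups. Lor made up 61.3% ± 2.02 of the summed CPM per kilobase in control and 27.7% ± 1.49 in DPCP libraries (SD, n = 3 each). Rptn went from 3.44% ± 0.276 to 34.6% ± 4.16, and Flg from 0.874% ± 0.128 to 4.51% ± 0.612. Rptn therefore took the largest mean share in DPCP skin, a place that Lor held in control. Flg2 went from 11.8% ± 0.944 to 2.47% ± 0.315. Ivl, whose own level was not called, went from 16.3% ± 1.15 to 24.2% ± 3.33 of a smaller total, and Hrnr was at 6.07% ± 1.37 and 5.94% ± 0.302. Summed over the 8 genes, the level was 1083 ± 206 CPM per kilobase in control and 650.1 ± 79.8 CPM per kilobase in DPCP skin (SD, n = 3 each). As plain counts, Flg2 alone held 50.5% of the 8 genes' reads in control.

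**Figure D3:**
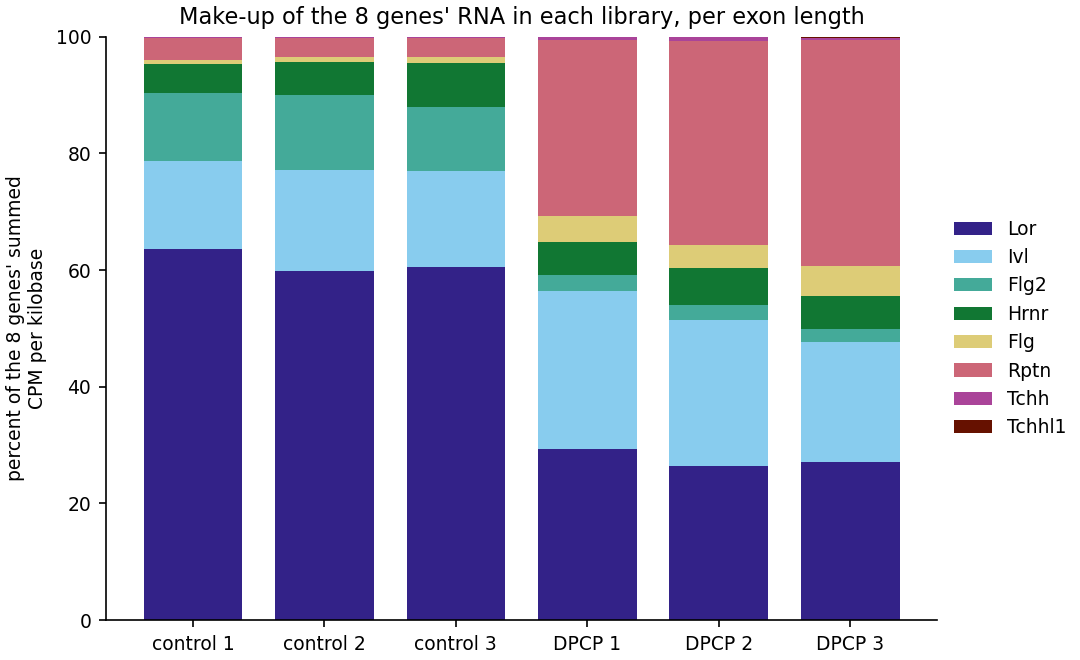
Share of each gene in the 8 genes' summed CPM per kilobase of exon length, as stacked bars for the 6 libraries. Lor fills 59.8% to 63.6% of the control bars, while Rptn fills 30.3% to 38.6% of the DPCP bars.

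In control skin the order of mean levels per kilobase was Lor (666 CPM per kilobase), Ivl (175), Flg2 (126), Hrnr (66.1), Rptn (37.6), Flg (9.38), Tchh (2.23) and Tchhl1 (0.0476), and no neighbours in that order overlapped over the 3 libraries. In DPCP skin it was Rptn (223 CPM per kilobase), Lor (181), Ivl (159), Hrnr (38.5), Flg (29.3), Flg2 (16.1), Tchh (3.08) and Tchhl1 (0.737). There Rptn overlapped with Lor and Lor with Ivl. Counted per kilobase of windows seen once, a scale chosen after seeing the data, Flg stood at 32.8 in place of 9.38 CPM per kilobase in control, and the control order became Lor, Flg2, Hrnr, Ivl, Rptn, Flg, Tchh and Tchhl1. On that scale Flg2, Hrnr and Ivl overlapped in control, as did Rptn and Flg. The DPCP order of means was the same as before, but there Hrnr (107 to 128) and Flg (82.6 to 113) overlapped too. The table length of Flg, 18829 bases, also exceeded its longest annotated transcript of 14497 bases. Levels of Flg relative to the other genes are uncertain for both reasons.

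Each gene was also set beside keratins in the same library, which removes library scaling. Krt10, the main keratin of differentiated layers, was itself lower in DPCP skin (5914 ± 1143 against 1019 ± 286 CPM; log2 fold change -2.54 ± 0.23 SE), and Krt14, the keratin of the basal layer, was higher (4772 ± 395 against 17412 ± 1232 CPM; log2 fold change 1.87 ± 0.12 SE; SD, n = 3 each). Krt10 and Krt5 each share an exon with a predicted gene, so their levels are uncertain. Against Krt10 the log2 ratio of Flg2 was -0.95, -1.12 and -1.41 in control and -1.64, -1.73 and -1.38 in DPCP libraries. The groups overlapped in this ratio, with a mean difference of -0.42 and SDs of 0.23 and 0.18 (2-sided exact permutation p = 0.2). The other 7 genes were higher relative to Krt10 without overlap, by 0.69 (Lor), 1.83 (Hrnr), 2.40 (Ivl), 3.04 (Tchh), 4.21 (Flg), 5.16 (Rptn) and 6.58 (Tchhl1) on the log2 scale. Against Krt14 the ratio of Flg overlapped between groups (mean difference -0.22, exact permutation p = 0.2), those of Rptn and Tchhl1 were higher, by 0.73 and 2.15, and those of Tchh, Ivl, Hrnr, Lor and Flg2 were lower. The choice of keratin mattered. Against Krt1, which had a log2 fold change of -0.75, the mean difference was -1.14 for Lor and -2.25 for Flg2, both without overlap (exact permutation p = 0.1 each). That of Hrnr was -0.00429 and that of Ivl 0.57, both with overlap. Against Krt5 in place of Krt14 the ratio of Flg was higher by 1.30 without overlap, while those of Tchh and Ivl overlapped, at differences of 0.13 and -0.51.

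Between the 8 genes there are 28 ratios, and in all 28 the groups did not overlap. These 28 ratios are built from only 8 genes and are not independent. The share of pairs without overlap among all tested genes was not computed, so this count is no mark of the 8. With 44 ratios in the family, 28 between the genes and 16 to Krt10 or Krt14, each ratio without overlap had an exact permutation p of 0.1 and a Benjamini-Hochberg adjusted p of 0.105, and none can pass the threshold in a design of this size. The smallest mean difference of the 28 was 0.57, for Ivl to Hrnr, which stood at -0.94, -0.93 and -1.43 in control and -0.31, -0.55 and -0.70 in DPCP libraries.

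Genes of keratinocyte layers and of other cell types moved in the same libraries. The summed level of 8 suprabasal keratinocyte markers was 17961 to 24615 CPM in control and 6981 to 8791 CPM in DPCP libraries, with 6 of the 8 lower. The 4 stress keratins on the list (Krt6a, Krt6b, Krt16 and Krt17) summed to 1323 to 1534 CPM against 17213 to 23576 CPM, with 4 of 4 higher. The 7 basal markers summed to 13712 to 16236 CPM against 25311 to 29206 CPM, with 3 higher and 3 lower. The mean of that sum went from 14843 to 26958 CPM, a smaller rise than that of Krt14 alone, given above. The sum therefore does not show that the basal markers rose as a set. Neutrophil markers, 7 in all, summed to 17.8 to 24.2 CPM against 456 to 1222 CPM. In DPCP libraries that sum had a mean of 800 CPM, of which S100a8 and S100a9 held means of 216 and 395 CPM. These 2 genes are also free S100a genes of the complex. The 6 skeletal muscle markers summed to 10667 to 13126 CPM against 2784 to 5652 CPM. Some lists overlapped between the groups in their summed level: fibroblast (4743 to 6729 against 6310 to 7676 CPM) and adipocyte (737 to 958 against 869 to 1027 CPM). So did macrophage and monocyte (1148 to 1930 against 1572 to 2697 CPM) and Langerhans cell markers (1260 to 1692 against 889 to 1347 CPM). Without overlap were endothelium (222 to 262 against 363 to 409 CPM) and mast cell markers (245 to 284 against 352 to 451 CPM). Melanocyte (8.47 to 18.5 against 22.5 to 24.5 CPM) and T cell markers (36.2 to 45.8 against 16.3 to 26.7 CPM) did not overlap either. No marker on these lists was at 0 in a whole group. The part of these shifts in the results for the 8 genes was not tested.

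Enzymes and other genes of filaggrin processing after translation were examined next. Of the 15 genes on this list, 8 were called higher (53.3%) and 1 lower (6.67%), against 22.8% and 23.3% of all tested genes. Their median log2 fold change was 0.59, where that of all tested genes was -0.01. Klk7, a protease of the cornified layer, went from 711 ± 84.9 to 2192 ± 201 CPM (log2 fold change 1.62 ± 0.12 SE). Blmh, the bleomycin hydrolase that takes part in the last breakdown of filaggrin, went from 242 ± 26.2 to 568 ± 16.6 CPM (1.23 ± 0.10), and Furin, a proprotein convertase, from 94.6 ± 9.54 to 179 ± 11.98 CPM (0.92 ± 0.10). Hal, the histidase that turns filaggrin's histidine into urocanic acid, was the 1 gene called lower, at 572 ± 75.3 against 243 ± 38.4 CPM (log2 fold change -1.23 ± 0.14 SE; SD, n = 3 each). Of the other proteases on the list, Casp14 was higher (log2 fold change 0.91 ± 0.15 SE). Asprv1, which cuts the linkers between filaggrin repeats, was at 1737 ± 288 and 1637 ± 195 CPM and not called (log2 fold change -0.09 ± 0.15 SE). These 2 were chosen after their values were seen.

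Of 17 genes of envelope cross-linking and scaffold, 4 were called higher (23.5%) and 6 lower (35.3%), with a median log2 fold change of -0.12. Among all tested genes the shares were 22.8% and 23.3%. The transglutaminase Tgm3 was higher (15.2 ± 4.13 against 50.2 ± 7.69 CPM; log2 fold change 1.72 ± 0.20 SE). Lower were the envelope protein sciellin, Scel (393 ± 21.4 against 201 ± 16.3 CPM; -0.97 ± 0.10), the desmosomal cadherin Dsg1a (1743 ± 200.2 against 678 ± 96.8 CPM; -1.36 ± 0.14) and suprabasin, Sbsn (2079 ± 179 against 1211 ± 56.0 CPM; -0.78 ± 0.10; SD, n = 3 each).

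Along the epidermal differentiation complex, taken as all genes between the outermost free S100a genes (chr3:90511034-93564643), 76 of 122 genes were tested. Of the 76, 40 were higher (52.6%) and 20 lower (26.3%), against 22.8% and 23.3% of all tested genes. Their median log2 fold change was 0.71. Without the 8 genes, 36 were higher and 17 lower of 68, with a median of 0.75. The small proline-rich genes, whose products bridge loricrin and other envelope proteins, were called higher in 14 of 15 tested genes, for example Sprr2h (8.27 ± 1.39 against 199 ± 21.8 CPM; log2 fold change 4.58 ± 0.15 SE). Sprr2a3 and Sprr2a1 were higher by 6.43 and 7.18 on the log2 scale (8.01 for Sprr2a1 without control replicate 1), though reads of near-identical Sprr2 copies could be lost or split in counting. Of 21 late cornified envelope genes, 7 were higher (33.3%) and 10 lower (47.6%). Lce1m went from 1273 ± 191 to 126 ± 37.4 CPM (log2 fold change -3.34 ± 0.23 SE), while Lce3d went from 2.81 ± 0.731 to 72.3 ± 22.9 CPM (4.68 ± 0.28; SD, n = 3 each). Lce1l and Lce1a2 were lower by 2.26 and 1.43 on the log2 scale. Of 13 tested free S100a genes, 7 were called higher and the other 6 were not called, with S100a8 and S100a9, which are also neutrophil genes, highest in fold and S100a16 at 311 ± 20.6 against 470.3 ± 7.24 CPM.

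**Figure D4:**
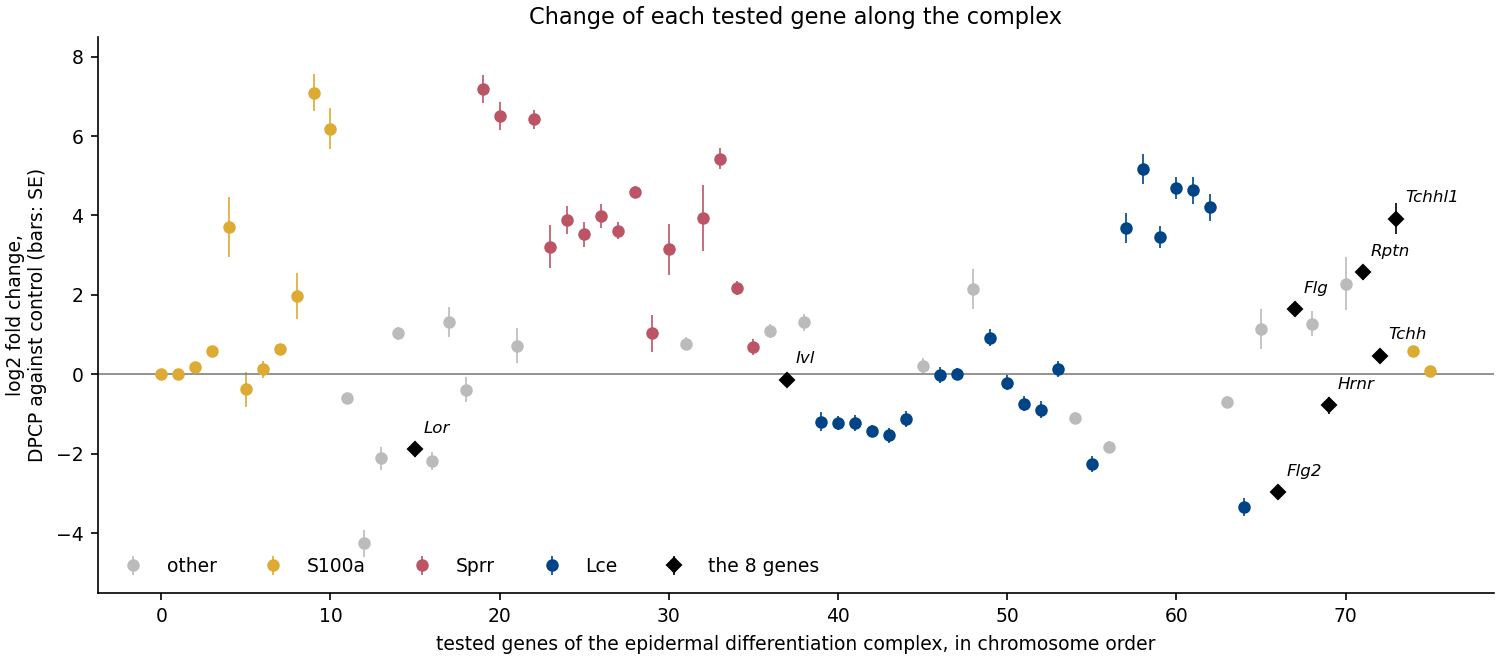
Log2 fold change with SE of the 76 tested genes of the complex, in chromosome order, with the 8 genes as labelled black diamonds. Values above and below 0 stand side by side among the Lce genes. Flg2, Flg, Hrnr and Rptn alternate in sign, while Rptn, Tchh and Tchhl1 are all above 0.

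The genes next to the 8 were mostly predicted genes or pseudogenes too low to test. Among those tested, 2310046K23Rik beside Ivl was higher (144 ± 19.5 against 308 ± 80.6 CPM; log2 fold change 1.09 ± 0.18 SE), as was the pseudogene Rplp0-ps1 inside Flg (0.711 ± 0.211 against 1.73 ± 0.408 CPM; 1.27 ± 0.31) and Gm37857, which overlaps Rptn (0.217 ± 0.221 against 1.07 ± 0.0509 CPM; 2.29 ± 0.67; SD, n = 3 each). Gm37857 had 13, 0 and 7 reads in control and 36, 38 and 35 reads in DPCP libraries, and its call was lost in 3 of the fits without 1 library (adjusted p of 0.0503 to 0.0639 by edgeR). Its log2 fold change was 3.26 without control replicate 1. Since strand was not used in the counting, reads of an antisense transcript would be counted with these genes. Rplp0-ps1 and Gm37857 lie on the plus strand, as Flg and Rptn do, and whether their reads came from Flg and Rptn was not tested. Furin, Sbsn, Sprr2a1, Foxq1, Cebpb, Jun, Jund, Fosl1, Il1b and Il31ra overlap an exon of another gene as well, and their levels are uncertain for that reason. The same holds for Chaf1a, Ccdc136, Psma5 and Ncbp1, which are named further below.

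Some known regulators of the 8 genes were measured too. Of 30 transcription factors of epidermal differentiation, 10 were called higher (33.3%) and 6 lower (20.0%), near the 22.8% and 23.3% of all tested genes, with a median log2 fold change of 0.16. Junb, a subunit of the AP-1 factor, went from 114 ± 7.36 to 328 ± 53.1 CPM (log2 fold change 1.53 ± 0.13 SE), and Cebpb from 76.2 ± 6.08 to 133 ± 3.40 CPM (0.80 ± 0.09). Pou2f3, an epidermal POU factor, was lower (118 ± 12.03 against 56.6 ± 7.31 CPM; -1.06 ± 0.12; SD, n = 3 each). Of the 6 AP-1 genes on the list, Junb, Fos, Fosl1 and Fosl2 were higher, Jund was lower, and Jun was at 80.5 ± 2.76 and 90.8 ± 4.11 CPM and not called. Of 20 cytokines and receptors known to act on filaggrin expression, 16 were tested. Of these, 11 were higher (68.8%) and 3 lower (18.8%), against 22.8% and 23.3% of all tested genes. Il33 went from 98.6 ± 10.8 to 266 ± 28.96 CPM, Il1b from 2.31 ± 1.06 to 213 ± 151 CPM and Il6 from 0.126 ± 0.0881 to 13.1 ± 8.65 CPM, while the receptor Il31ra went from 34.7 ± 2.82 to 10.5 ± 1.70 CPM (SD, n = 3 each). DPCP replicate 2 was the highest library for Il1b (99.9, 385 and 154 CPM) and Il6 (6.61, 22.96 and 9.88 CPM). Without it the log2 fold change of Il1b was 5.79 in place of 6.53 and that of Il6 was 5.96 in place of 6.63. Without control replicate 3 that of Il6 was 7.22. The type 2 cytokines Il4 and Il13, chosen after their values were seen, were at 1.39 and 0.207 CPM in control and at 1.124 and 0.343 CPM in DPCP skin and were not called.

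**Figure D5:**
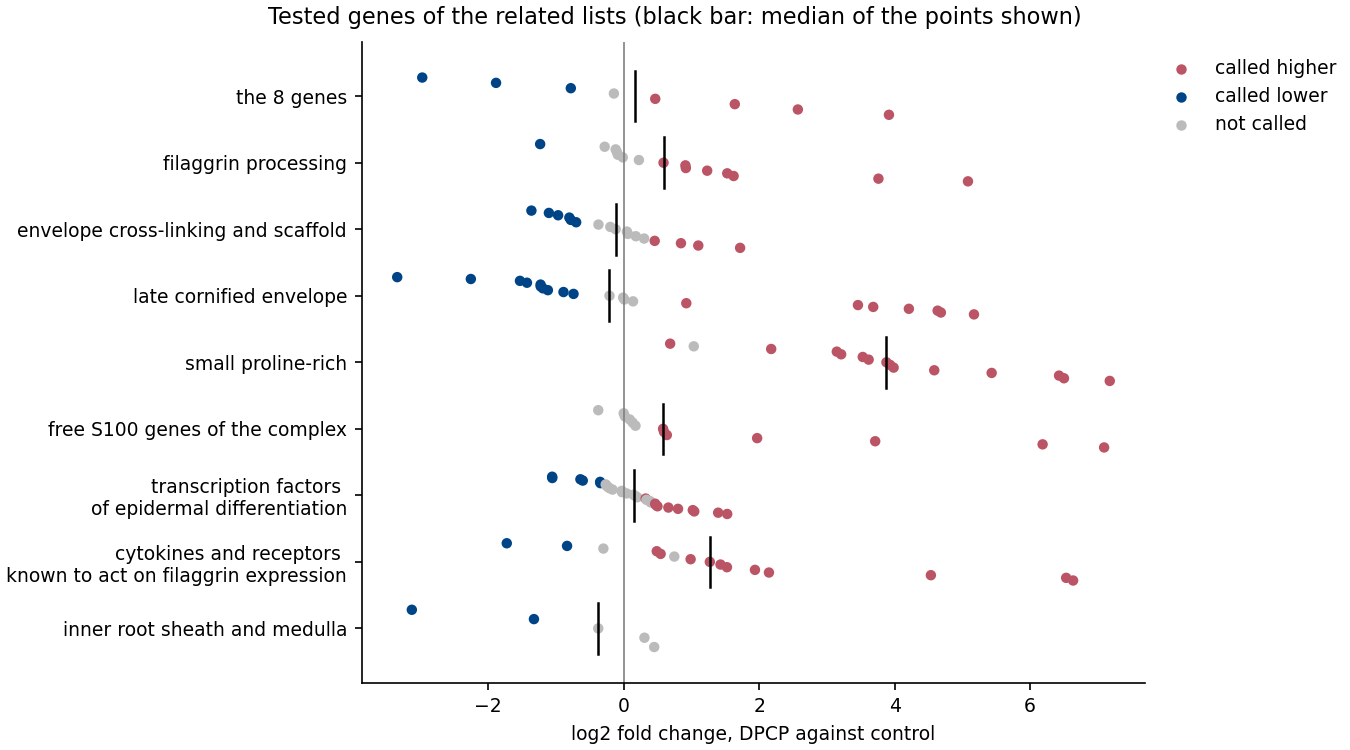
Log2 fold change of each tested gene of the 8 lists of related genes and of the 8 genes, coloured by call, with the median as a black bar; Il25, with no read in any DPCP library, is left out. The 8 genes span -2.97 to 3.92, while 14 of 15 small proline-rich genes are called higher.

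The promoters of the 8 genes were read from the RefSeq table of the same build (GRCm38.p6), as the 250 bases before each RefSeq start, and all 8 were matched by symbol. For Tchh that start is the first base of the start codon, so its window may not be its promoter, and the lack of a match there says nothing about one. The Flg window ended at chr3:93273545, past the start of Flg in the count table (chr3:93273523). Distances given for Flg therefore depend on the start taken. Letters of 5 binding motifs were searched on both strands. The letters TGANTCA, written so to hold the AP-1 site, were in 6 of the 8 promoters (Lor, Ivl, Flg, Flg2, Rptn and Tchhl1), against 6.75% of 32851 promoters. The first of the 7 letters lay 48 (Lor), 116 (Ivl), 103 (Flg), 69 (Flg2), 96 (Rptn) and 87 (Tchhl1) bases before the start. They are shown because genes that rose and genes that fell both held them, as windows of 30 bases on the strand of the gene with the match in capitals.
Lor, chr3:92083161-92083190, minus strand: TGAGTCAgagcaggacaagagtataaaaca
Ivl, chr3:92573822-92573851, minus strand: TGACTCAgaaaggaaggaagttgaccaact
Flg, chr3:93273443-93273472, plus strand: TGAATCAgaccatcccacagagagtggctc
Flg2, chr3:93197204-93197233, plus strand: TGAATCAgcccatcccacagaagacagcac
Rptn, chr3:93393603-93393632, plus strand: TGATTCAggccctaccaacagaatgggtgt
Tchhl1, chr3:93468667-93468696, plus strand: TGAATCAggtcattacacccagagggtgtc
In Lor and Ivl the middle letter was G or C, as in the usual AP-1 site. In Flg, Flg2 and Tchhl1 it was A and in Rptn T, so those 4 match only the wider form searched. Beyond the 7 letters, the windows of Flg and Flg2 were identical at 16 of 23 bases, the most of the 15 pairs (median 9, lowest 2), although Flg was higher and Flg2 lower in DPCP skin. No matches of different motifs overlapped. A match is a description of the letters, not a site of binding.

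The letters TATAAA were in the promoters of Lor, Ivl, Flg, Hrnr and Rptn, 5 of 8, against 12.4% of all promoters. TTGCNNAA, for C/EBP factors, was in Flg, Flg2 and Hrnr (3 of 8 against 9.56%), CACCC, for KLF factors, in 5 of 8 against 52.0%, and AACCNGTT, for GRHL factors, in Rptn alone (1.79% of all promoters). The promoters of Flg and Flg2 are given whole because these genes, next to each other in the order of the fused genes, changed in opposite directions. The TGANTCA and TATAAA matches are in capitals.
Flg, chr3:93273296-93273545, plus strand: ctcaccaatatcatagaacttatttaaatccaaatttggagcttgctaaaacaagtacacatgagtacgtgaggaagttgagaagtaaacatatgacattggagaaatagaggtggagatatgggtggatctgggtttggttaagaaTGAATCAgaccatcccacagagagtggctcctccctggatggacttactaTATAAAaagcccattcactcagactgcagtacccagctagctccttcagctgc
Flg2, chr3:93197023-93197272, plus strand: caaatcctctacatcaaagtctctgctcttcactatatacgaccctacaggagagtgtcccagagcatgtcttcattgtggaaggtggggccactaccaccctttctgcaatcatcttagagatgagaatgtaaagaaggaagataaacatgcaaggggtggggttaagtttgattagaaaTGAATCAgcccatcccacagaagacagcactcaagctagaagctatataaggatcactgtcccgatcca

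For each gene with a mean of at least 1 CPM, the 2 genes with the most similar pattern were found among 12408 genes, by the root mean square difference of log2 CPM centred on its mean over the 6 libraries. Lor was most like 2310050C09Rik (0.087, a gene of the same complex) and Cyp2b19 (0.09996), and Ivl most like Lce1h (0.065) and Pparg (0.074). The genes nearest to Flg were Gen1 (0.133) and Chaf1a (0.142), and those nearest to Flg2 were Calcb (0.071) and Sema3d (0.139). Hrnr had Rnase2b (0.103) and Ccdc136 (0.118), Rptn had Epop (0.132) and Gm14328 (0.161), and Tchh had Psma5 (0.029) and Ncbp1 (0.033). The 8 genes themselves were left out of the 12408, so their likeness to each other was not examined. These values describe 6 libraries in which the groups set most of the pattern.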

How the data were processed

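Whole dorsal mouse skin, 3 control and 3 DPCP samples, was measured by polyadenylated RNA sequencing in 150-base pairs with a strand-preserving kit, per the labels' protocols. The deposited values are unnormalized counts per gene from featureCounts 1.6.2, run, per the file headers, with no option for strand, pairs or reads with several alignments, so mates were counted singly on either strand and reads over several places or genes were left out. HISAT2 2.2.1, Trimmomatic 0.36, DESeq2 1.34.0, StringTie 2.2.1 and mm10 are named in the submitters' processing notes. Library totals were 28346992 to 33468828 counts in control and 31609336 to 38846787 in DPCP. A count of 0 allows up to 0.0772 to 0.106 CPM (3 counts, counting error only).

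Counts were tested with edgeR 4.0.16 in R 4.3.3 (quasi-likelihood, TMM factors, filterByExpr, Benjamini-Hochberg over all genes tested). The procedure was tested on simulated data. SE is the absolute log2 fold change, as fitted without edgeR's prior count, over the square root of F. The log2 fold changes printed include that prior count. Ratios were tested by exact permutation with SciPy 1.17.1. Sequences came from GENCODE M21 (GRCm38) and RefSeq (GRCm38.p6). The 14 alternatives were scaling by library totals, RLE or upper-quartile factors, other filters, DESeq2 1.42.0, limma-voom (limma 3.58.1), a replicate block and leaving out each library. Named genes are the 8, from each list the 3 with the smallest p in its main direction and 1 in the other, direct neighbours, and the 2 most similar genes. Of these, 1 gene is not reported here. The labels name no pairing of the libraries by replicate number. Correlations of same-numbered deviations were 0.05, 0.03 and 0.11, and with 3 libraries a group they cannot exclude a pairing. The 8 genes and all lists were chosen with earlier results of these data known.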

Additional observations from a re-analysis of the deposited data

How the results depend on the processing

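The directions of the called genes held in all 14 alternative fits. So did the calls, with 1 exception: without DPCP replicate 3, Hrnr was not called, which leaves 2 genes lower. Ivl was called in none of the fits, at log2 fold changes of -0.35 to -0.0038, so it has no established direction. Leaving out 1 library at a time gave 4 genes higher throughout and 2 to 3 lower. The fit with a replicate block gave 4 higher and 3 lower among the 8 genes, with 4260 higher and 4241 lower of all genes, and changed no call among the 8. The median over all genes moved to -0.09 with library totals alone. Filaggrin processing genes called lower numbered 2 with library totals alone and 1 to 2 when 1 library was left out (2 without control replicate 2), and inner root sheath genes called higher numbered 0 to 1. Against Krt1 in place of Krt10 the ratio of Lor was -1.14 and that of Hrnr -0.00429, and against Krt5 in place of Krt14 the ratio of Flg was 1.30 and that of Tchh 0.13. Flg2, which overlapped against Krt10, did not against Krt1 (-2.25), and Ivl, which did not overlap against Krt10 or Krt14, did against Krt1 (0.57) and Krt5 (-0.51). The log2 fold changes of Krt1 and Krt5, -0.75 and 0.34, were smaller than those of Krt10 and Krt14. As plain shares of reads, with no division by length, control and DPCP values were 22.5% and 11.07% for Lor and 6.45% and 10.5% for Ivl. They were 3.38% and 19.0% for Flg, 50.5% and 11.6% for Flg2, and 13.99% and 14.9% for Hrnr. Tchh held 0.249% and 0.625%, and Tchhl1 held 0.00199% and 0.0532%. Rptn went from 2.95% to 32.2%, the largest share in DPCP libraries. The 3 libraries a group set the precision. Depth limited Tchhl1 in control skin, at 9 reads in all.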

Other observations

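Cornulin (Crnn) is a further fused S100 gene of the complex that lies before Flg2. It had 8, 3 and 4 reads in the control libraries and 12, 12 and 13 reads in the DPCP libraries. The groups did not overlap, but the change was not called (log2 fold change 1.14 ± 0.51 SE, adjusted p = 0.0911 by edgeR's quasi-likelihood test), at 0.164 ± 0.0944 against 0.364 ± 0.0479 CPM (SD, n = 3 each).

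Within the late cornified envelope genes, families separated after the values were seen differed in direction. Of 14 Lce1 genes 1 was called higher and 9 lower, and their median log2 fold change was -1.003. All 6 Lce3 genes were called higher, at a median of 4.42. Other keratinocyte-rich structures of skin also differed: 4 of 5 sebocyte markers were lower, with a summed level of 4422 to 6123 CPM in control and 2716 to 3508 CPM in DPCP libraries.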
